A study of Homo sapiens with 8 samples.

Results

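The messenger RNAs examined here come from 10 genes whose transcripts are very abundant in most human cells: ACTB, ACTG1, GAPDH, EEF1A1, EEF2, TUBA1B, HSP90AB1, HSPA8, NPM1 and NCL. They were taken by name, with fixed gene intervals in hg19, and every peak that touched an interval on the gene's own strand was kept. This gave 353 of the 266317 peaks in 5 lists: 106 of PTB crosslinked with UVC, 177 of PTB crosslinked with UVA, 36 of a published PTB iCLIP, 27 of PTB without UV and 7 of YFP crosslinked with UVC. The lists hold no measure of RNA amount, so the abundance behind the choice was not checked in these cells. For the same reason, more RNA and more binding per RNA cannot be told apart in any count below.

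Polypyrimidine tract binding protein (PTB) is a nuclear RNA-binding protein with RNA recognition motifs that prefers pyrimidine-rich RNA. It is best known as a repressor of alternative exons, and it also acts in 3′ end processing, transport and translation of messenger RNA. Crosslinking and immunoprecipitation (CLIP) maps such contacts by joining protein to RNA with ultraviolet light and sequencing the RNA that is purified with the protein. Abundant messages are commonly examined in CLIP studies as a place where unspecific recovery would show.

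All libraries came from 293T, an established line of human embryonic kidney origin, in 2 transgenic forms. The genotype labels read Halo-PTB for 3 groups and Halo-YFP for the fourth, so every group, controls included, carried a Halo-tagged transgene and was grown with puromycin. Halo-PTB cells were irradiated with UVC or with UVA or left without UV, and Halo-YFP cells, whose tagged yellow fluorescent protein stands in for a protein that is not PTB, were irradiated with UVC. No source used here gives the promoter of the transgenes or says whether each line is a clone. Each of these 4 groups has 2 samples and 1 pooled peak list. The iCLIP list was remade by the submitters from an earlier, gel-based study, whose cells the labels do not name.

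Depth and the spread between replicates are unknown in all lists, so no test between conditions was possible, and intervals below are exact 95% intervals that cover counting error only. Peaks that touch or share reads are not independent, so these intervals may be too narrow. The lists differ in size, from 118434 peaks for UVC and 83725 for UVA to 58213 for iCLIP, 3809 without UV and 2136 for YFP. Shares of a list are therefore set beside the counts. Scores are the authors' own value per peak, run up to 1000, rise as the p-value of the peak falls, and rank peaks within a list only. Exons, introns and untranslated regions were not annotated, because no hg19 annotation was used here.

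The 353 peaks were taken from the sense strand by rule, and the opposite strand of the same 10 intervals held 0 peaks in the 5 lists. The genes span 73072 nt in all, from 2896 nt for ACTG1 to 23181 nt for NPM1. Their peaks covered 4646 nt in the UVC list, 8055 nt in the UVA list, 1358 nt in the iCLIP list, 1274 nt without UV and 269 nt for YFP. All 10 genes had UVC and UVA peaks, 9 had an iCLIP peak, 8 had a peak without UV and 3 had a YFP peak. UVA peaks outnumbered UVC peaks on 9 of the 10 genes, although the UVC list is the longer, and NPM1 was the exception. After peaks of a list within 20 nt were merged, UVC and UVA were equal on ACTG1 (10 sites each) and GAPDH (6 each). The other genes kept their direction.

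As a share of its list, the list without UV held the most of these genes. They took 0.709% of the peaks without UV (interval 0.468 to 1.03), 0.328% of the YFP peaks (0.132 to 0.674), 0.211% of the UVA peaks (0.181 to 0.245), 0.0895% of the UVC peaks (0.0733 to 0.108) and 0.0618% of the iCLIP peaks (0.0433 to 0.0856). The share without UV was thus 7.92 times that of UVC, 3.35 times that of UVA and 11.5 times that of iCLIP. The UVA share was 2.36 times the UVC share, and their intervals did not meet. These ratios also depend on how many low-scoring peaks each list holds. Among peaks at or above the top-10% score of their list, the genes held 85 of 12585 for UVC and 55 of 8384 for UVA. Without UV it was 9 of 492. In that part of the lists the UVA share no longer exceeded the UVC share, while the share without UV remained the highest of these 3. The interval of the YFP share, which rests on 7 peaks, met those of UVA and of the list without UV. Among nucleotides covered by each list the order was the same, at 1.1% without UV, 0.271% for YFP, 0.232% for UVA, 0.128% for UVC and 0.0541% for iCLIP.

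**Figure D1:**
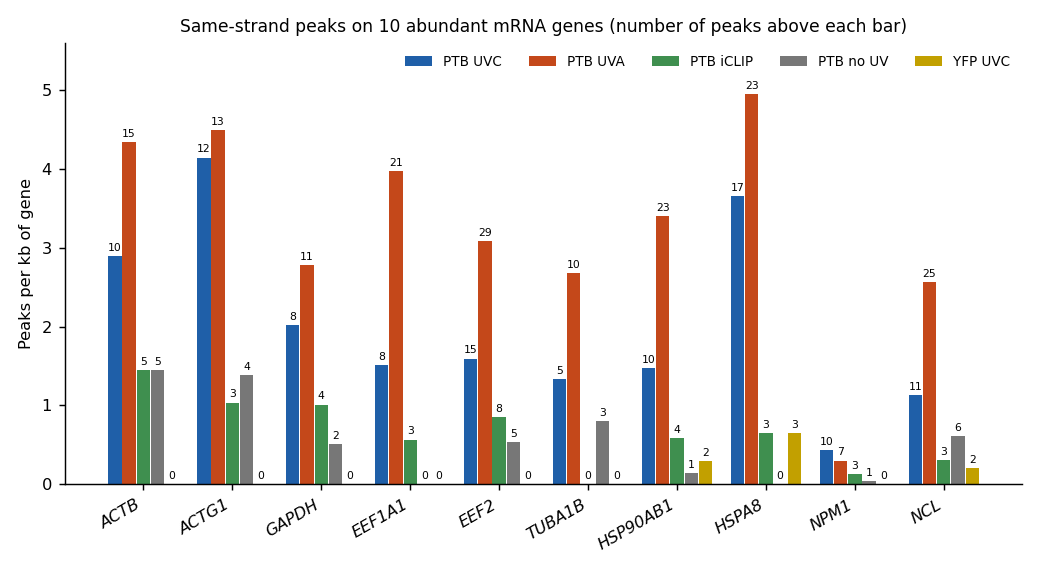
Peaks per kb of gene (y axis) for each of the 10 genes (x axis), with a bar for each of the 5 lists and the number of peaks above it. UVA bars are the tallest on 9 genes, NPM1, the longest interval, has the lowest UVC and UVA density, and YFP peaks appear on HSP90AB1, HSPA8 and NCL alone.

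Per length, UVA peaks were densest on HSPA8 (4.95 peaks per kb), ACTG1 (4.49), ACTB (4.34) and EEF1A1 (3.98) and sparsest on NPM1 (0.302). UVC peaks were densest on ACTG1 (4.14 per kb), HSPA8 (3.66) and ACTB (2.895) and again sparsest on NPM1 (0.431). These lengths include introns. NPM1 is the longest interval, at 23181 nt, and its 10 UVC peaks equalled the count on ACTB and on HSP90AB1. Without a spread over samples, the order of neighbouring genes was not tested.

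ACTB, which encodes beta-actin, had 10 UVC, 15 UVA, 5 iCLIP and 5 no-UV peaks and no YFP peak. Its highest-scoring UVC peak (chr7:5566906-5566957, score 234) and highest-scoring UVA peak (chr7:5566894-5566954, score 775) overlapped within the last 200 nt of the gene. The iCLIP peaks of ACTB were low in score, from 13 to 48, and the highest (chr7:5568681-5568723) met neither crosslinked GoldCLIP list. The highest-scoring no-UV peak of ACTB (chr7:5570184-5570235, score 49) covered the first bases of the gene, where no other list had a peak. Another stretch, chr7:5567931-5568319, held 2 UVC, 6 UVA and 2 no-UV peaks within 389 nt.

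ACTG1 encodes gamma-actin, the other cytoplasmic actin, and had 12 UVC, 13 UVA, 3 iCLIP, 4 no-UV and 0 YFP peaks. The main UVC and UVA peaks again lay at the 3′ end, at chr17:79477031-79477090 (score 330) and chr17:79477083-79477179 (score 587), and a no-UV peak at chr17:79477073-79477130 (score 24) touched both. The highest-scoring iCLIP peak on any of the 10 genes was on ACTG1, at chr17:79478676-79478784 with a score of 340. No UVC, UVA or control peak lay on it. This stretch was therefore found in the iCLIP list alone.

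TUBA1B, an alpha-tubulin gene, had 5 UVC, 10 UVA and 3 no-UV peaks and was the only one of the 10 genes with no iCLIP peak; it had no YFP peak either. Its UVC peak at chr12:49521569-49521683, which ends close to the 3′ end of the gene, was the only UVC peak on these genes at the score limit of 1000. In the UVA list 5 of the 10 TUBA1B peaks were at the limit, counting 1 listed with a p-value and a score of 0. A no-UV peak of score 28 (chr12:49521652-49521720) overlapped that end. At the other end of the gene, a UVA peak at the limit (chr12:49525085-49525158) met a UVC peak of score 66 (chr12:49525122-49525159) and a no-UV peak of score 15.

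**Figure D2:**
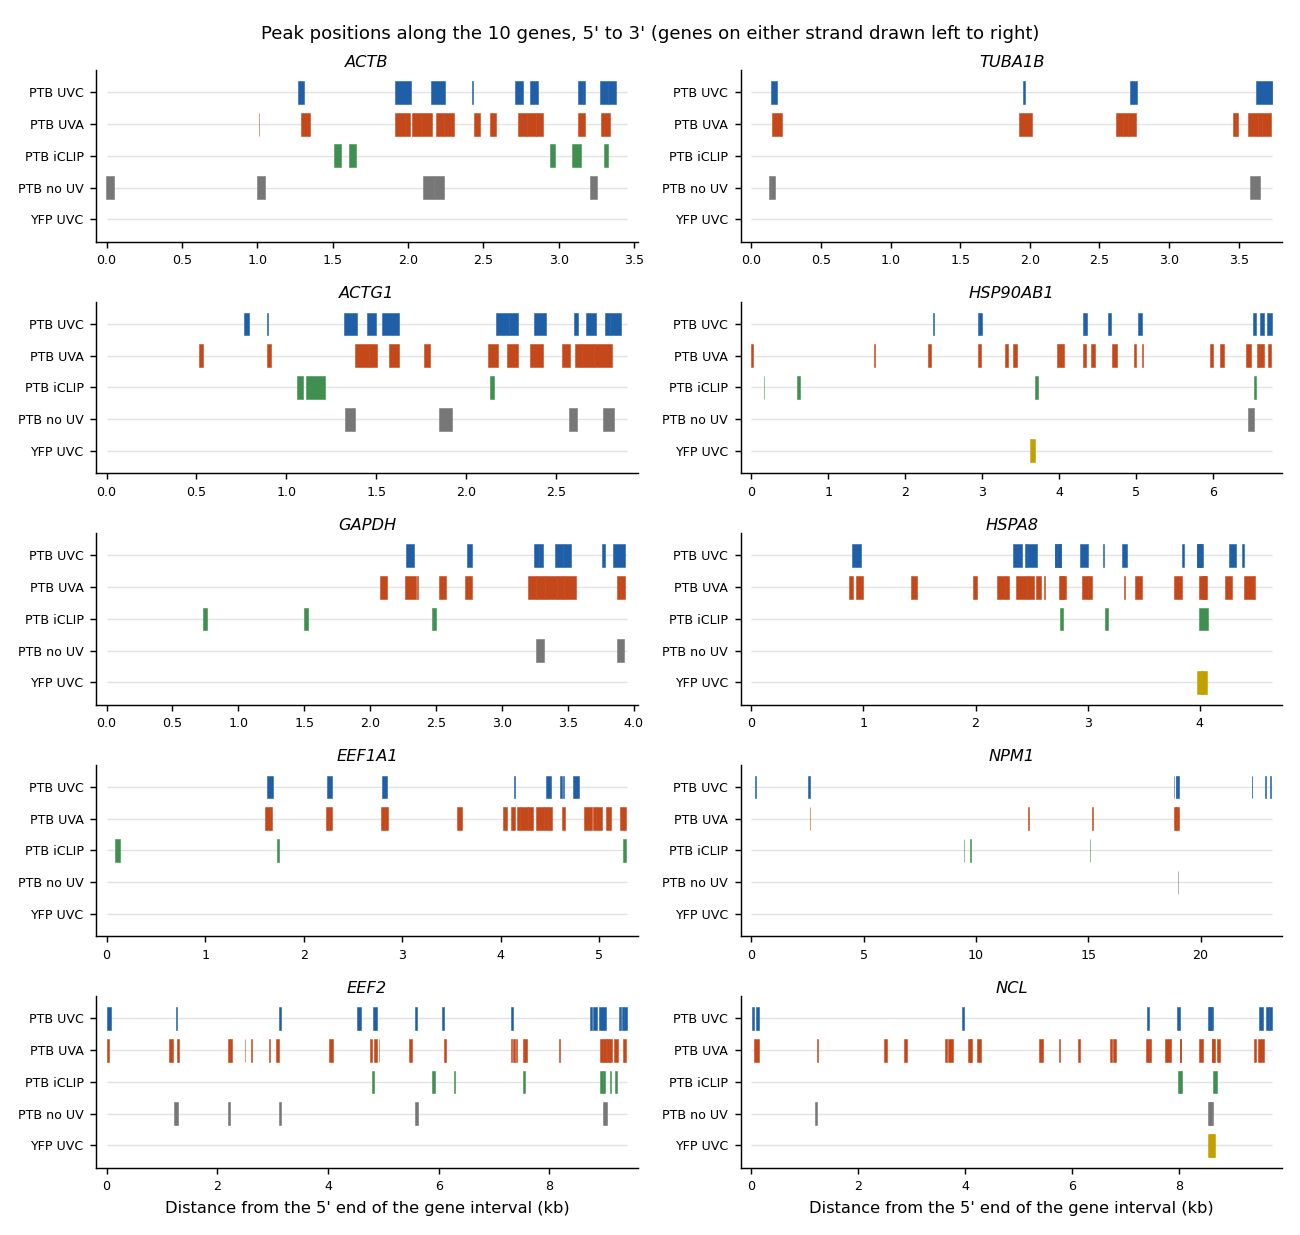
Positions of all peaks along the 10 genes, each panel running from the 5′ to the 3′ end of a gene interval (x axis, kb) with a row for each list. UVC and UVA rows crowd toward the 3′ end in ACTB, ACTG1, GAPDH and EEF1A1, and iCLIP peaks often stand apart from both.

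GAPDH, a glycolytic enzyme often used as a loading reference, had 8 UVC, 11 UVA, 4 iCLIP, 2 no-UV and 0 YFP peaks. All UVC and UVA peaks lay in the 3′ part of the interval, the first of them 2078 nt from its 5′ end. The highest-scoring UVC peak (chr12:6647433-6647519, score 407) lay at the 3′ end and overlapped a no-UV peak of score 19. A chain of 5 UVA peaks and 4 UVC peaks filled chr12:6646787-6647149, together with the other no-UV peak, of score 32. The highest-scoring UVA peak of GAPDH (chr12:6646913-6647001, score 741) is one of the chain. The iCLIP peaks of GAPDH scored 13 to 19, and none of the 4 met a UVC, UVA or control peak.

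EEF1A1 encodes the elongation factor that brings aminoacyl-tRNA to the ribosome. It had 8 UVC, 21 UVA and 3 iCLIP peaks and was the only one of the 10 genes with no peak in either control. The UVC peaks had a median score of 22.5, beside 19 over the UVC list. The UVA peaks had a median of 328, beside 92 over the UVA list, and included 4 at the limit. Of the UVC positions, 7 of 8 overlapped a UVA peak. The UVC peaks with the highest scores, chr6:74227910-74227965 (score 120) and chr6:74229069-74229130 (score 69), were among these. The second of them lay on 2 UVA peaks at the limit, chr6:74229073-74229098 and chr6:74229099-74229146. The highest-scoring iCLIP peak of EEF1A1 (chr6:74230622-74230669, score 28) lay near the 5′ end and met no other list.

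EEF2, the factor that moves the ribosome along the message, had 15 UVC, 29 UVA, 8 iCLIP, 5 no-UV and 0 YFP peaks, the most UVA and iCLIP peaks of the 10 genes. A stretch near its 3′ end, chr19:3976324-3976565, held 1 UVC, 5 UVA, 3 iCLIP and 1 no-UV peak, with highest scores of 274, 1000, 27 and 44. The highest-scoring iCLIP peak of EEF2 lay elsewhere, at chr19:3979525-3979577 with a score of 38, and met no other list. The other no-UV peaks of EEF2 scored 14 to 32, and each met a UVC or UVA peak. A further stretch, chr19:3976064-3976296, held 4 UVC peaks, 2 UVA peaks and 1 iCLIP peak and no control peak. EEF2 was also occupied at its very start, where a UVC peak of score 242 (chr19:3985384-3985456) overlapped a UVA peak of score 695 (chr19:3985410-3985451). The 3′ end and the 5′ end of this gene were thus both found with each wavelength, and the 5′ end in no control.

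HSP90AB1 and HSPA8 encode chaperones of the HSP90 and HSP70 families. HSP90AB1 had 10 UVC, 23 UVA, 4 iCLIP, 1 no-UV and 2 YFP peaks. Its strongest UVC peak (chr6:44221549-44221619, score 600) ran 5 nt past the 3′ end of the interval, met a UVA peak of score 314 (chr6:44221561-44221601) and met no control peak. The highest-scoring UVA peak (chr6:44221433-44221456, score 1000) lay a little upstream of it. The 2 YFP peaks, both of score 16, adjoined each other at chr6:44218465-44218534 and overlapped no PTB peak. The no-UV peak, of score 41, overlapped a UVC, a UVA and an iCLIP peak.

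HSPA8 had 17 UVC, 23 UVA, 3 iCLIP, 0 no-UV and 3 YFP peaks, the most UVC peaks of the 10 genes. The YFP peaks, with scores of 24 to 36, all fell in the stretch chr11:122928775-122928871. The same stretch held 3 UVC peaks with a highest score of 157, 3 UVA peaks with 1 at the limit and the highest-scoring iCLIP peak of the gene (chr11:122928775-122928850, score 80). It was the only place on HSPA8 with a control peak. Elsewhere on the gene the strongest UVC peak (chr11:122930431-122930507, score 183) met a UVA peak of score 528.

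NPM1 and NCL encode nucleophosmin and nucleolin, abundant proteins of the nucleolus. NPM1, the longest interval, had 10 UVC, 7 UVA, 3 iCLIP, 1 no-UV and 0 YFP peaks. Peaks gathered in a stretch of 230 nt inside the gene, chr5:170833511-170833740, with 4 UVC peaks (highest score 249), 4 UVA peaks (2 at the limit) and the no-UV peak (score 16). This was the only place on NPM1 where UVC and UVA met. The 3 iCLIP peaks, with scores of 60 to 90, met no other list, and the 4 UVC peaks in the last 1000 nt had no UVA peak beside them.

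NCL had 11 UVC, 25 UVA, 3 iCLIP, 6 no-UV and 2 YFP peaks. The highest-scoring peak of each control on any of the 10 genes lay on NCL, at 1 place, chr2:232320441-232320648. There the highest scores were 635 for UVC, 445 for YFP, 107 without UV, 73 for UVA and 25 for iCLIP. It was the only site on the 10 genes present in all 5 lists, and it held 5 of the 6 no-UV peaks and both YFP peaks of NCL. At the 3′ end of NCL, UVC peaks of score 312 and 524 (chr2:232319462-232319514 and chr2:232319515-232319576) met no UVA, iCLIP or control peak. NCL also had the lowest UVA scores of the 10 genes, with a median of 101 and none above 256.

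**Figure D3:**
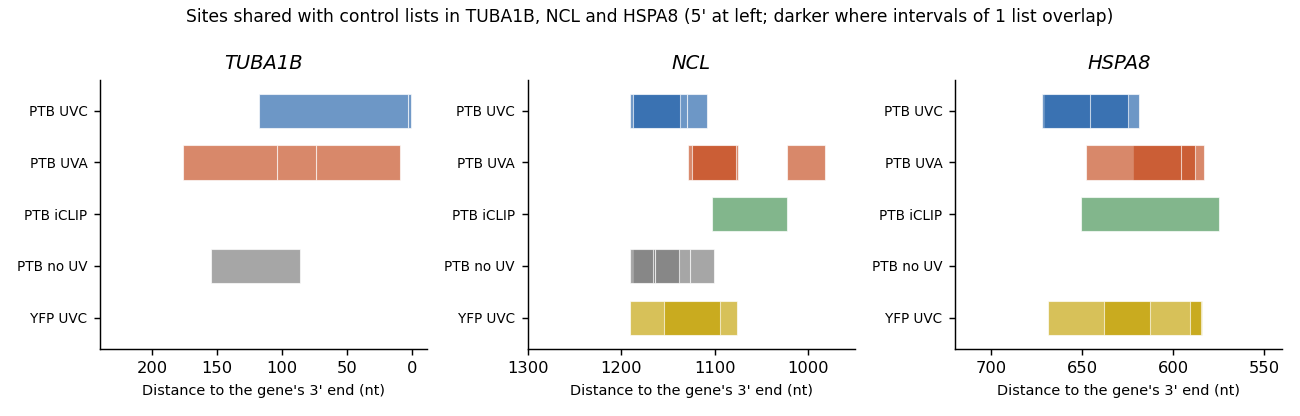
Close-up of a control-positive site in TUBA1B, NCL and HSPA8, with distance to the gene's 3′ end on the x axis (nt) and a row for each list. The NCL site is present in all 5 rows, the HSPA8 site in all but the row without UV, and the TUBA1B end in UVC, UVA and no UV.

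Ranked within their own lists, the peaks on these genes stood high in UVC and UVA and low in iCLIP. Of the 106 UVC peaks, 85 (80.2%, interval 71.3 to 87.3) were at or above the score that marks the top 10% of the UVC list, beside 10.6% of all UVC peaks (ties included). The UVA count was 55 of 177 (31.1%, interval 24.3 to 38.5), beside 10.0% of all UVA peaks. For iCLIP it was 1 of 36 (2.78%), beside 10.0%, with an interval that holds this value (0.0703 to 14.5). At or above the median score of their list were 100 of the UVC peaks (94.3%, beside 50.9% of all UVC peaks) and 162 of the UVA peaks (91.5%, beside 50.1%). The score limit held 1 of the UVC peaks (0.943%, beside 0.217% of the list), 17 of the UVA peaks (9.60%, interval 5.70 to 14.9, beside 3.36%) and 0 of the iCLIP peaks (0.455% of the list). Median scores were 80.5 on the genes and 19 over the list for UVC, 311 and 92 for UVA, and 20.5 and 47 for iCLIP. Fewer iCLIP peaks on these genes than in the list reached the list median: 8 of 36 (22.2%, interval 10.1 to 39.2) against 50.7% of all iCLIP peaks.

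The control lists hold few peaks on these genes. Without UV, 9 of the 27 peaks (33.3%, interval 16.5 to 54.0) reached the top-10% score of that list, beside 12.9% of all its peaks. At or above the list median were 20 of the 27 (74.1%), with an interval (53.7 to 88.9) that holds the 56.1% of all its peaks. The peaks without UV thus stood clear of their list by the first measure only. Of the 7 YFP peaks 1 reached the top-10% score of its list, the NCL peak of score 445, beside 10.0% of the list.

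**Figure D4:**
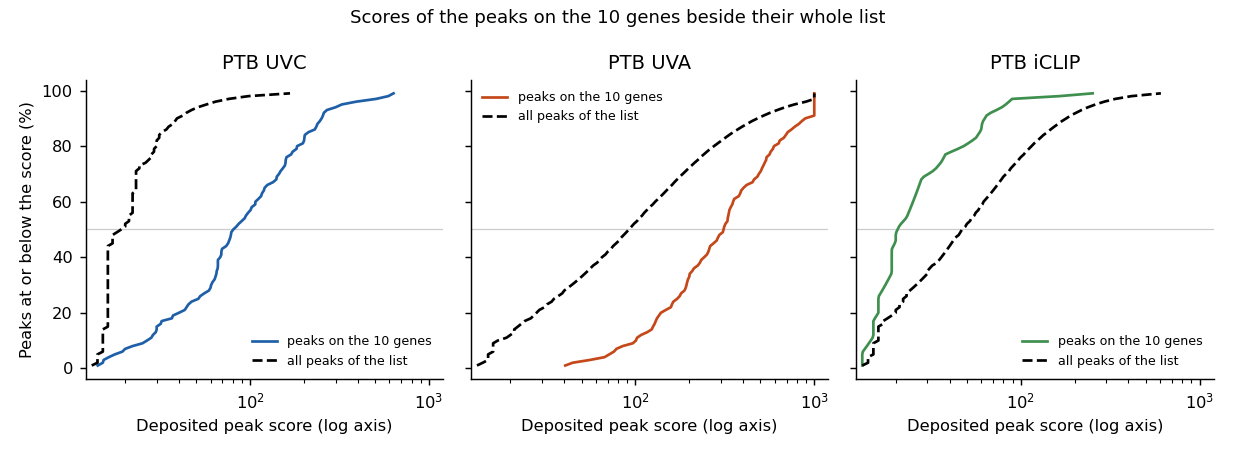
Share of peaks at or below a score (y axis, %) against the deposited score (x axis, log), for peaks on the 10 genes (solid) and for the whole list (dashed). The solid line lies to the right of the dashed line in UVC (medians 80.5 and 19) and UVA (311 and 92) and to the left in iCLIP (20.5 and 47).

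The comparison with the controls asked how often PTB peaks on these messages lay where RNA was also recovered without UV or with YFP. Of the UVC peaks on the 10 genes, 22 of 106 (20.8%, interval 13.5 to 29.7) shared at least 1 nt with a control peak, against 1.01% of all UVC peaks. For UVA it was 26 of 177 (14.7%, interval 9.83 to 20.8), against 1.04% of all UVA peaks, and for iCLIP 4 of 36 (11.1%, interval 3.11 to 26.1), against 0.601%. Most of this came from the list without UV, which met 19 of the UVC peaks (0.621% of the list) and 23 of the UVA peaks (0.597% of the list). YFP met 6 UVC peaks (5.66%, against 0.611% of the list) and 5 UVA peaks (2.82%, against 0.564%), all on NCL and HSPA8. The UVC peaks on a control peak were spread over 9 genes, all but EEF1A1, and so were the UVA ones.

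Control overlap rises with score in these lists, so it was also taken within bands of score. Among UVC peaks scoring above 200, 9 of 19 on the genes (47.4%, interval 24.4 to 71.1) met a control peak, close to the 51.3% of all UVC peaks in that band. Above 100 and up to 200 it was 6 of 27 (22.2%, interval 8.62 to 42.3), beside 11.9%. Above 50 and up to 100 it was 5 of 34 (14.7%, interval 4.95 to 31.1), beside 3.38%, and up to 50 it was 2 of 26 (7.69%, interval 0.946 to 25.1), beside 0.334%. In the UVC list these genes thus stood above the whole list at scores up to 100, while at higher scores the value of the whole list lay within the interval. The band up to 50 held 111117 of the 118434 UVC peaks, whose median score is 19. Scores were not matched inside any band, so a difference in score can remain there.

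For UVA the gap was present at high scores too. Among UVA peaks above 200, 18 of 118 met a control peak (15.3%, interval 9.30 to 23.0), beside 2.30% of all such peaks. The next band down, to 100, had 6 of 41 (14.6%, interval 5.57 to 29.2), beside 0.852%. The lower bands were thinly filled, with 2 of 13 between 50 and 100 (0.537% of the list) and 0 of 5 up to 50 (0.387% of the list).

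The same sites were also counted from the controls. Of the 27 no-UV peaks, 23 (85.2%, interval 66.3 to 95.8) met a UVC, UVA or iCLIP peak, against 22.7% of all peaks of that list. UVC met 20 of them (15.8% of the list) and UVA 19 (12.6% of the list). Of the 7 YFP peaks, 5 met a UVC, UVA or iCLIP peak (71.4%), with an interval (29.0 to 96.3) that holds the 33.4% of the whole YFP list. The no-UV peaks themselves scored from 13 to 107 with a median of 24, beside 17 over the list without UV. After peaks of all lists within 20 nt were merged, the genes held 142 sites, of which 22 had a control peak. Of these 22, 19 also had a UVC or UVA peak, 1 (on HSP90AB1) had an iCLIP peak and 2 (on ACTB and ACTG1) had a no-UV peak alone. No such site counts were made over the whole lists, so no background rate stands beside them.

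**Figure D5:**
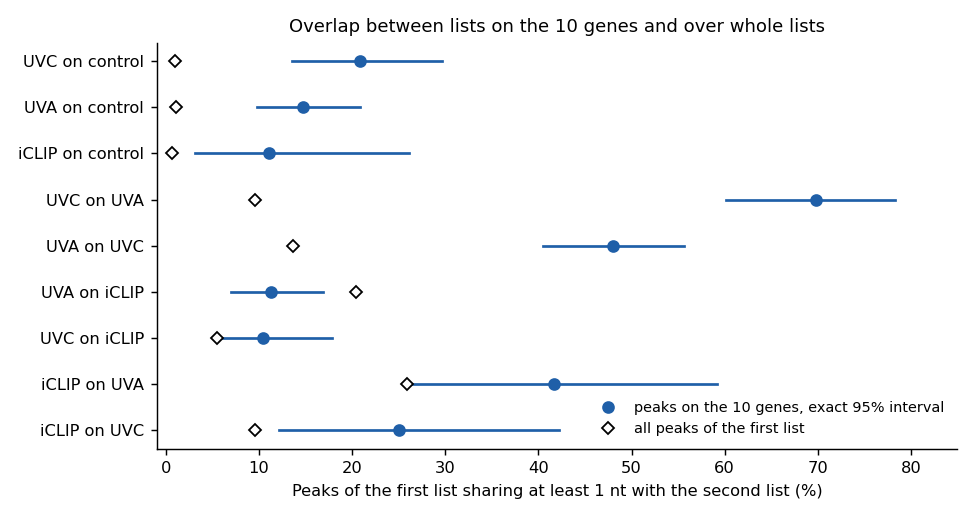
Share of peaks of the first-named list that meet the second (x axis, %), for peaks on the 10 genes (filled, with exact 95% interval) and over the whole list (open). UVC peaks meet UVA peaks in 69.8% on these genes and 9.61% over the list, while UVA peaks meet iCLIP peaks in 11.3% on the genes and 20.4% over the list.

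UVC and UVA peaks shared positions on these genes more often than over their whole lists. Of the UVC peaks, 74 of 106 (69.8%, interval 60.1 to 78.3) met a UVA peak, against 9.61% of all UVC peaks. Of the UVA peaks, 85 of 177 (48.0%, interval 40.5 to 55.6) met a UVC peak, against 13.6%. Within bands of score, the share for UVA peaks above 200 was 50.8% on the genes (interval 41.5 to 60.2) and 25.3% over the list, and a band lower it was 46.3% (interval 30.7 to 62.6) and 15.0%.

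For UVC peaks up to 50 the share meeting UVA was 53.8% on the genes (interval 33.4 to 73.4) and 7.73% over the list. It was 64.7% (interval 46.5 to 80.3) and 30.7% in the band up to 100, and 88.9% (interval 70.8 to 97.6) and 49.4% in the band up to 200. Above 200, with 19 peaks on the genes, it was 73.7%, and its interval (48.8 to 90.9) held the 62.0% of the whole list. Since these messages carry many peaks in each list, peaks can also meet by density alone, and this was not tested.

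Overlap of UVA with the published iCLIP map ran the other way when counted from the UVA peaks, but not when counted from the iCLIP peaks. Of the UVA peaks on the 10 genes, 20 of 177 (11.3%, interval 7.04 to 16.9) met an iCLIP peak, against 20.4% of all UVA peaks. The difference was wider among UVA peaks above 200, at 13 of 118 (11.0%, interval 6.00 to 18.1) against 36.5%. For UVC the share was 11 of 106 (10.4%, interval 5.30 to 17.8) against 5.45% over the list. Above 200 it was 2 of 19 (10.5%, interval 1.30 to 33.1) against 32.1%. Both of these whole-list UVC values lay inside the interval. From the iCLIP side, 15 of 36 peaks met UVA (41.7%, interval 25.5 to 59.2, against 25.9%) and 9 of 36 met UVC (25.0%, interval 12.1 to 42.2, against 9.59%). The whole-list value lay inside the interval for UVA and below it for UVC.

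Of the 142 merged sites, 55 held UVC and UVA peaks together, 47 held UVA alone, 14 UVC alone and 16 iCLIP alone. Sites merged across lists were counted on these genes only. Whether these counts, or those that follow, differ from the whole lists was not tested. The sites in all 3 crosslinked PTB lists numbered 11, on ACTB, ACTG1, EEF2, HSP90AB1, HSPA8 and NCL. EEF2 had 3 of them, ACTB, HSPA8 and NCL had 2 each, and ACTG1 and HSP90AB1 had 1 each. Of these 11 sites 5 held a control peak as well: 1 each on ACTB, EEF2, HSP90AB1, HSPA8 and NCL. The 6 without one were chr7:5567059-5567146 (ACTB), chr17:79477603-79477773 (ACTG1), chr19:3976064-3976296 and chr19:3980535-3980698 (EEF2), chr11:122930042-122930131 (HSPA8) and chr2:232321152-232321236 (NCL).

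In each list the last 1000 nt of the genes held more peaks than their share of the pooled gene length, although over 50% of the peaks of each list lay elsewhere. The midpoint was within the last 1000 nt for 49 UVC peaks, or 46.2% (36.5 to 56.2). The same window held 59 UVA peaks, or 33.3% (26.4 to 40.8), and 11 iCLIP peaks, or 30.6% (16.3 to 48.1). Among the 27 no-UV peaks it held 8, or 29.6% (13.8 to 50.2). For YFP it held 3 of 7, or 42.9%, and that interval (9.90 to 81.6) included the length share of the window. These windows make up 13.7% of the gene intervals, which include introns. The window is 4.31% of NPM1, the longest gene, and 34.5% of ACTG1, the shortest. The pooled share therefore need not be the share expected for the genes that carry the peaks. The lower bounds for iCLIP and for the list without UV lay little above 13.7%. How much of the gap comes from introns or from this mix of genes was not tested. The same limit holds for the shorter windows below. In the last 200 nt, 2.74% of the intervals, there were 17 UVC peaks (16.0%, interval 9.63 to 24.4) on 8 genes and 15 UVA peaks (8.47%, interval 4.82 to 13.6) on 8 genes. For iCLIP there were 2 (5.56%), with an interval (0.680 to 18.7) that held the length share. The highest-scoring UVC peak was within 200 nt of the 3′ end on 5 genes (ACTB, ACTG1, GAPDH, TUBA1B and HSP90AB1), the highest-scoring UVA peak on 3 (ACTB, ACTG1 and HSP90AB1) and the highest-scoring iCLIP peak on none of 9. TUBA1B has 5 UVA peaks tied at the limit, and the widest was taken; 2 of the 5 lie within 200 nt of the 3′ end, so the UVA count is 4 genes when any tied peak is allowed.

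At the 5′ end, the first 200 nt held 5 UVC peaks (4.72%, interval 1.55 to 10.7), on EEF2, TUBA1B, NPM1 and NCL, and 4 UVA peaks (2.26%, interval 0.619 to 5.68), on EEF2, TUBA1B, HSP90AB1 and NCL. Both intervals held the 2.74% of length that these windows make up. The UVC and UVA lists had more peaks in the last 200 nt than in the first, while iCLIP had 2 in each window and the list without UV had 3 in each. The HSP90AB1 one (chr6:44214839-44214865, score 475) began 10 nt before the interval. On NCL a UVA peak of score 235 (chr2:232329071-232329147) met a UVC peak of score 87 (chr2:232329063-232329119). The 3 no-UV peaks in these windows lay on ACTB and TUBA1B, and the 2 iCLIP peaks on EEF1A1 and HSP90AB1.

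Intervals of a list that overlap each other were found on HSPA8 and NCL and on none of the other 8 genes. Their share on the 10 genes was near that of the whole list for UVC (4.72% and 3.14%), UVA (3.39% and 2.85%) and iCLIP (2.78% and 2.38%). It was 11.1% and 5.54% without UV, and 42.9% and 14.4% for YFP, where it rests on 3 peaks each. On HSPA8 there were 4 such intervals in the UVC list, 3 in UVA and 2 in YFP, and on NCL 1 in UVC, 3 in UVA, 1 in iCLIP, 3 without UV and 1 in YFP. At the 5-list site of NCL, a UVC peak of score 115 (chr2:232320596-232320645) lay inside the peak of score 635 (chr2:232320589-232320648). In RefSeq's GRCh38.p14 gene table, HSPA8 encloses the small nucleolar RNA genes SNORD14C, SNORD14D and SNORD14E, and NCL encloses SNORA75, SNORD20 and SNORD82. EEF2, which encloses SNORD37, had no overlapping intervals, and the other 7 genes enclose none. Positions were not carried between builds, so whether these intervals lie on the small RNAs was not tested.

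Several of these genes have many named pseudogenes in the genome. RefSeq names 65 pseudogenes for GAPDH, 50 each for EEF1A1 and NPM1, 21 for ACTG1, 20 for HSPA8, 14 for ACTB and 2 for NCL, counted by symbol, and none under the symbols TUBA1B, EEF2 and HSP90AB1. A count by symbol can miss copies named otherwise, and how alike the copies are was not measured. A count of none therefore does not show that a gene is free of similar copies. No source used here says how reads that match several places were handled, so peak counts on genes with similar copies, and on the paired actin genes, are uncertain.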

How the data were processed

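The samples are 8 GoldCLIP libraries of 293T cells in 4 groups of 2, with replicates pooled or merged before deposit. Reads were mapped with Bowtie 1.1.2, and builds hg19 and dm3 are named, per the submitters' processing notes (no source used here names the peak caller). Column 7, the deposited score, and column 8, the deposited p-value to 14 decimals, are the authors' values per peak. The score was 10 times the negative log10 of the p-value, rounded down, for 99.9% (UVC), 97.6% (UVA) and 98.5% (iCLIP) of peaks with a printed p-value above 0. A peak listed with both at 0 was placed at the score limit of 1000.

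Starts were written 1-based. Overlap meant at least 1 nt on the same strand, and sites merged peaks within 20 nt. Overlap counts equalled those of bedtools 2.31.1 in 20 of 20 ordered pairs of lists, and 6 of 6 counts were recovered on simulated data. Shares carry exact Clopper-Pearson 95% intervals. All 10 genes are named. The rule for peaks took the highest-scoring peak of each list (ties by width), control peaks and sites in 3 PTB lists; many low-scoring ones are given by score or count only, and other peaks named were chosen after their values were seen. Genes and lists were chosen with earlier results of these data known. Score measures and score bands were added after seeing the data. Intervals came from scipy 1.17.1 and figures from matplotlib 3.10.9, with pandas 2.3.3 and numpy 2.4.6 under Python 3.11.15.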

Additional observations from a re-analysis of the deposited data

How the results depend on the processing

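Of 108 alternative values for 17 results, 94 stayed within the interval of the main value (for median scores, within the quartiles) and 14 did not. With peaks at or above their list's median score only, the share of the list on the 10 genes was 0.166% (UVC), 0.386% (UVA) and 0.0271% (iCLIP), the iCLIP overlap with UVA was 12.5% and the iCLIP share in the last 1000 nt was 12.5%, the last 2 resting on 8 peaks. With peaks within 20 nt merged, the UVA share of the list was 0.167% (interval 0.138 to 0.2). The UVC share, still within its main interval, was then 0.101% (0.0799 to 0.125). Without EEF2 the UVA share was 0.177%. With at least 50% of the peak covered, 9.04% of UVA peaks on the genes met a control peak and 30.5% met a UVC peak. The latter was 59.9% with midpoints within 50 nt. Whole-list overlap shares were not recomputed under any alternative, so those given above, which use the main settings, do not apply to these values. The end window held 27.4% of UVC and 20.3% of UVA peaks at 500 nt, and 30.2% and 19.8% at 10% of the gene. The 500 nt windows make up 6.84% of the pooled gene length, beside 13.7% for 1000 nt, so a lower share there is not a weaker excess. Ignoring strand could move no value, because the opposite strand of the intervals held 0 peaks. Counting each interval once, or asking for at least 50% of a peak inside the gene, changed no count of peaks on the genes. These settings are among the 94 values, so that count overstates how far the results were put to a test. Removal of NCL and HSPA8, added after seeing the data, was run for control overlap only and gave 20.5% (UVC), 15.5% (UVA) and, on 2 of 30 peaks, 6.67% (iCLIP). No paired analysis was possible because each group has 1 pooled list, and for the same reason no replicate could be left out. Depth is unknown, so a gene without a peak in a short list, as for YFP on 7 genes, shows only that none was called there.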

Other observations

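Chains of adjoining peaks were more common on these genes than over the whole list for UVA, but not for UVC. In the UVA list 43 of 177 peaks (24.3%) began where the previous peak ended, beside 9.85% of all UVA peaks. In the UVC list it was 16 of 106 (15.1%), beside 21.6% of all UVC peaks. No interval was computed for these shares, so whether the UVC share differs from its list was not tested. The longest merged stretch on each gene ran from 175 nt on TUBA1B to 389 nt on ACTB.

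Over 105 overlapping pairs on the 10 genes the median shift of the UVA midpoint towards the 3′ end was 8.5 nt (quartiles -15.0 and 27.5), with UVA further 3′ in 60 (57.1%) and further 5′ in 45. Over the 14619 overlapping pairs of the whole lists the median was 3.5 nt (quartiles -14.5 and 23.0), with UVA further 3′ in 55.2%, so the 10 genes were near the background. These are values without a test.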
